A study of Drosophila virilis and Drosophila willistoni and Drosophila miranda with 119 samples.

Results

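The vacuolar proton pump (V-ATPase) genes described here are all genes of the wider deposited table whose symbol starts with Vha, 33 of 17674 genes. They encode the 2 sectors of the pump and its accessory proteins, and several subunits have more than 1 gene copy. Of the 33 genes, 15 are the main or only copy of a subunit or accessory protein, where main means the copy known from the epithelial pump of the fly, and 18 are alternative copies.

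The V-ATPase is a rotary enzyme that spends ATP to move protons into lysosomes, endosomes and secretory vesicles, and across the surface of some epithelia. Its V1 sector faces the cytoplasm, where subunits A and B split ATP and subunits C to H form the stalks and the regulatory cap. Its V0 sector lies in the membrane, where a ring of c subunits turns against subunit a and carries the protons. An early Drosophila embryo lives on mRNA that its mother loaded into the egg, until this mRNA is cleared and the embryo's own genes are switched on.

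The study sequenced mRNA of single embryos of 14 Drosophila species at stage 2, before the zygotic genome is broadly transcribed, and at stage 5, the cellular blastoderm. The labels list 119 embryos, 64 at stage 2 and 55 at stage 5, with 3 to 7 embryos for each stage of a species. The species were D. melanogaster, D. simulans, D. sechellia, D. mauritiana, D. yakuba, D. santomea and D. erecta (called the melanogaster subgroup here), D. pseudoobscura, D. persimilis and D. miranda (the obscura group), and D. ananassae, D. willistoni, D. mojavensis and D. virilis. D. melanogaster was used at stage 2 alone, so 13 species had both stages. No treatment was given, and no strain is named in the labels for most species. Embryos of D. pseudoobscura had Flagstaff 14 mothers and PP1134 fathers, and those of D. miranda had MSH22 mothers and SP138 fathers. These 2 species were taken over from an earlier study and are labelled total RNA, and all others polyA RNA. Their stage 5 samples are titled latest5, a word that the titles of the other species lack, and held 3 female and 3 male embryos each, and 1 stage 2 embryo of D. pseudoobscura is noted as possibly unfertilized. In 6 species some or all libraries held a small amount of D. melanogaster RNA besides that of the labelled species: D. mojavensis, D. persimilis, D. santomea, D. sechellia and D. simulans throughout, and the stage 2 embryos of D. virilis. The design text adds that stage 5 embryos of D. yakuba and D. virilis from another series were used in the study, and the tables do not show whether their columns include those.

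Each column of the table gives 1 FPKM value per gene (fragments scaled to transcript length and to the mapped fragments of the library) for all embryos of a species and stage together, so species stand as replicates, related species are not independent of each other, and the sequencing depth is unknown. The stages matched their labels. The summed FPKM of 5 zygotic genes was 0.147 to 99.1 at stage 2 and 508 to 1683 at stage 5, where ftz and twi had the highest medians. At stage 2 slam led these genes, with a median of 38.6 and a highest of 95.2 FPKM, so its mRNA was present at both stages. The summed FPKM of 4 maternal genes, with osk and pgc the highest at stage 2, was 636 to 1104 at stage 2 and 14.8 to 121 at stage 5. Markers of other tissues were low. The eggshell markers, led by Fcp3C and Cp18, summed to at most 6.34 FPKM at stage 2 and 9.00 at stage 5, the yolk and fat body markers, led by Yp3 and Lsp2, to at most 5.90 and 13.9, the gut markers, led by Npc2f and Jon25Bi, to at most 0.460 and 6.05, and the Malpighian tubule markers, led by Irk3 and CapaR, to at most 1.70 and 13.7. The testis list summed to between 0.158 and 88.2 FPKM at stage 2 and between 0.921 and 203 at stage 5, mainly through bam, which the egg also carries. Fewer cells of a type and less RNA per cell cannot be told apart in whole embryos.

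How the pump genes changed between the stages was tested with limma on the difference of log2(FPKM+1), stage 5 minus stage 2, within each species, and a gene was called where the Benjamini-Hochberg adjusted p was under 0.05 and the mean changed by 1 or more. Of the 33 genes, 22 could be tested, 5 had values in under 10 species and 6 had a mean FPKM under 1, and the mean FPKM filter favours copies that are high in at least 1 group. Of the 22 tested, 8 were called, which is 36.4% against 47.3% of all 7225 genes tested. The 5 called lower (22.7% of the tested pump genes, against 16.5% of all genes) were Vha100-2, Vha68-2, Vha55, Vha36-1 and Vha13, and the 3 called higher (13.6%, against 30.9%) were VhaM9.7-a, VhaM9.7-c and Vha100-1. The median change was -0.21 over the tested pump genes and 0.39 over all genes.

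The direction of a gene depends on how columns are scaled, because a total of FPKM grew 2.63-fold by stage 5 (median over species). This total, also used for the scaling to the same total, covers only genes with a value in every column and none of 100000 FPKM or more. Centring each species on its median change left 7 pump genes lower and 3 higher. Of all 7225 genes, 1651 were then lower and 1599 higher, with a median of 0.02. Bringing all columns to the same total gave 13 pump genes lower and 1 higher. Of all 7133 genes tested on that scale, 3025 were lower and 586 higher, with a median of -0.72. Quantile normalization gave 12 pump genes lower and 1 higher. Of all 7284 genes tested after it, 1552 were lower and 1306 higher, with a median of 0.05. The 5 genes called lower were among those called lower under each of these 3 scalings, whereas of the 3 called higher VhaM9.7-a alone was called higher under all of them. With the same total and after quantile normalization the added lower calls included Vha44, Vha26, VhaAC39-1, Vha16-1, VhaPPA1-1, VhaM9.7-b and VhaM8.9. A factor applied to a whole column leaves the ratio of 2 FPKM values within it as it was, but quantile normalization does not, and the added 1 weighs on low values.

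All 5 genes that fell are main or only copies, of 15 tested, and all 3 that rose are alternative copies, of 7 tested. Of these 7, Vha68-3, Vha36-3 and Vha100-4 reached 1 FPKM in 1 species each, where the main copy has no entry. Their medians were at most 0.125 FPKM, so they could hardly be called lower. VhaM9.7-a, among the 3 that rose, was listed at 0 at stage 2 in 8 of 13 species, where it could not fall. The split between main and alternative copies is partly set by this floor. The main or only copies had a median change of -0.59, and 12 of the 15 had a negative mean. At an unadjusted p under 0.05 in limma, 8 main or only copies were lower and 2 higher, and 3 alternative copies were higher and 0 lower. The share of all genes at this unadjusted limit is not given here, so these counts cannot be set against it. With the same total or after quantile normalization no main or only copy had a positive change.

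**Figure D1:**
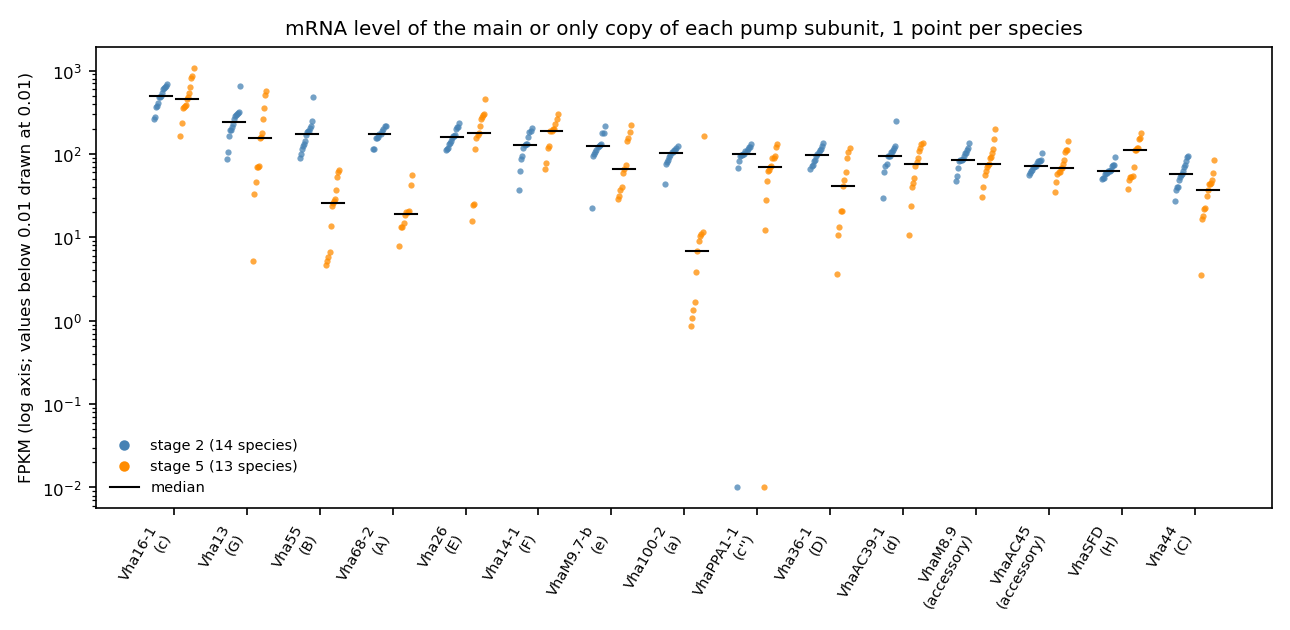
FPKM (log axis) of the main or only copy of each pump subunit, ordered by the median at stage 2, with 1 point per species (blue, stage 2; orange, stage 5), black bars at the medians, and species without an entry left out. Vha16-1 was highest at both stages, Vha55, Vha68-2 and Vha100-2 were far lower at stage 5 on the deposited scale and under each other scaling, and VhaPPA1-1 of D. mauritiana lies below the axis limit at both stages.

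In the catalytic part of V1, subunits A and B, the main genes fell together. Vha68-2, the A subunit that binds and splits ATP, was at 113 FPKM at its lowest at stage 2 (D. pseudoobscura), 173 in the median and 218 at its highest (D. willistoni), over 11 species. At stage 5 it was at 7.84 (D. erecta), 19.1 and 55.5 (D. willistoni), over 10 species. The highest stage 5 value lay below the lowest stage 2 value, and the gene fell in 10 of 10 species, by 3.04 ± 0.74 (SD, n = 10; limma adjusted p = 5.63e-08). Vha55, the B subunit, which completes the ATP-binding sites, went from 88.7, 176 and 483 FPKM (lowest in D. pseudoobscura, median, highest in D. santomea) to 4.67 (D. simulans), 26.1 and 63.5 FPKM (D. ananassae). Here too the stages did not overlap, and Vha55 fell in 13 of 13 species, by 3.04 ± 1.48 (SD, n = 13; limma adjusted p = 2.11e-06).

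The stalk subunits moved less and not all one way. Vha36-1, subunit D of the central shaft, went from 66.3, 97.2 and 134 FPKM (D. persimilis, median, D. yakuba) to 3.65, 40.9 and 117 FPKM (D. mojavensis, median, D. simulans). Its stages overlapped, but it was lower at stage 5 in 10 of 11 species (-1.53 ± 1.28, SD, n = 11; limma adjusted p = 0.00141), D. simulans being the exception at 0.23. In the species without D. melanogaster material Vha36-1 was at -0.94 and was not called. Vha13, subunit G of the outer stalk, ranged from 86.1 to 650 FPKM at stage 2 with a median of 244, and from 5.22 to 567 at stage 5 with a median of 154. It was lower in 8 of 13 species (-1.03 ± 1.70, SD, n = 13; limma adjusted p = 0.0396) and just passed the limit of 1. The call of Vha13 was lost when any 1 of D. simulans, D. sechellia, D. mauritiana, D. yakuba, D. santomea, D. erecta or D. virilis was left out, with a mean of -0.72 to -1.20 over all single omissions, and also in the species without D. melanogaster material (-0.76).

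Other V1 genes were not called. Vha44, the C subunit that helps to join V1 to V0, was lower in 13 of 13 species, from a median of 56.9 to 36.8 FPKM (-0.87 ± 0.85, SD, n = 13; limma adjusted p = 0.00371), and was called with each species centred on its median (-1.24), with the same total (-2.17) and after quantile normalization (-1.44). Vha26, subunit E of the outer stalk, had medians of 160 and 178 FPKM and a mean of -0.27 ± 1.52, with 8 species higher and 5 lower. Vha14-1, subunit F of the shaft, was higher in 9 of 11 species (0.50 ± 0.54), and VhaSFD, the regulatory subunit H, in 9 of 13 (0.45 ± 0.71), with medians of 129 to 190 FPKM and 61.8 to 111 FPKM. Both means turned negative with the same total (-0.82 and -0.87) and after quantile normalization (-0.60 and -0.32).

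In V0, subunit a showed the largest fall of any pump gene tested. Vha100-2, the main a subunit, which lines the proton path, was at 43.2 FPKM at its lowest at stage 2 (D. ananassae), 101 in the median and 125 at its highest (D. yakuba), over 12 species. At stage 5 the lowest of 11 species was 0.873 (D. sechellia), the median 6.94 and the highest 165 (D. virilis). The 10 species other than D. virilis reached at most 11.7 FPKM at stage 5, below every stage 2 value, whereas D. virilis rose from 83.9 to 165 FPKM. The mean change was -3.72 ± 1.88 (SD, n = 11; limma adjusted p = 1.36e-05), and it was -4.19 without D. virilis.

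On the deposited scale neither main copy of the proton-carrying ring was called. Vha16-1, the c subunit and the main ring gene, was the highest pump gene at both stages in the order of medians, at 264, 489 and 685 FPKM (D. simulans, median, D. yakuba) at stage 2 and 166, 452 and 1073 FPKM (D. virilis, median, D. persimilis) at stage 5. Its stage 2 range lay within that of stage 5, and its change was not called (-0.09 ± 0.65, SD, n = 13; limma adjusted p = 0.640), but it was called lower with the same total (-1.44) and after quantile normalization (-1.75). VhaPPA1-1, the c'' ring subunit, had medians of 101 and 69.4 FPKM and was lower in 10 of the 12 species other than D. mauritiana (mean over all 13, -0.64 ± 0.78; limma adjusted p = 0.0155, below the size limit). VhaPPA1-1 was called lower with each species centred on its median (-1.01), with the same total (-1.88) and after quantile normalization (-1.56). In D. mauritiana it was listed at 4.3e-05 and 5.86e-30 FPKM, against 67.5 FPKM or more at stage 2 in the other species. VhaAC39-1, the d subunit that couples the ring to the shaft, had medians of 95.3 and 75.2 FPKM and was lower in 9 of 12 species (-0.59 ± 0.72), not called. VhaM9.7-b, the main copy of the small e subunit, had medians of 123 and 65.3 FPKM and was lower in 7 of 11 species (-0.59 ± 1.08), not called.

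Both accessory genes kept about the same level as deposited. VhaAC45, an accessory membrane protein of the pump, went from a median of 72.0 to 67.1 FPKM (0.01 ± 0.43, SD, n = 13), and VhaM8.9, the fly counterpart of the vertebrate prorenin receptor, from 85.0 to 76.4 FPKM (-0.13 ± 0.50, SD, n = 13). Neither was called. Both were called lower with the same total (-1.32 and -1.46).

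**Figure D2:**
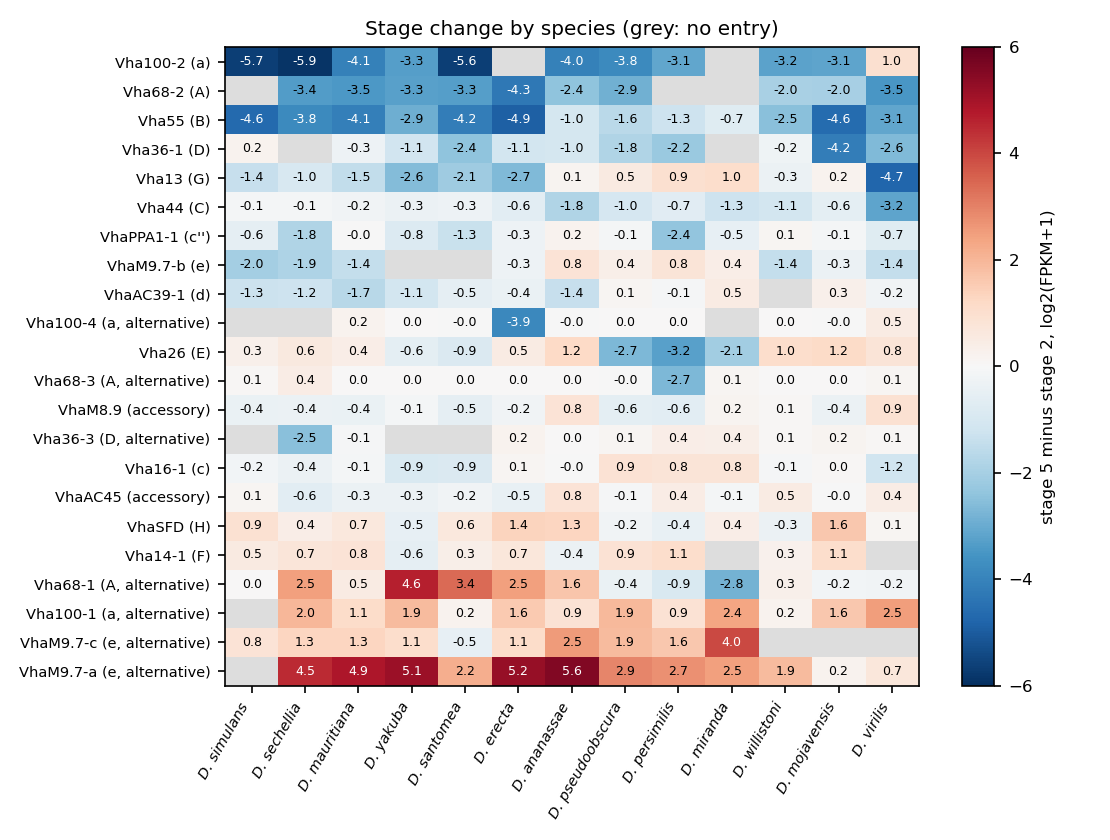
Stage change in log2(FPKM+1), stage 5 minus stage 2, of the 22 tested pump genes (rows, ordered by mean change, with the subunit in brackets) in 13 species (columns); blue is lower at stage 5, red higher, grey no entry. Vha68-2 and Vha55 were lower in each species with an entry and Vha100-2 in all but D. virilis, while Vha26 was below -2 in the 3 obscura species alone; scaling to the same total moves most rows towards lower values.

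The order of the subunits by median FPKM therefore differed between the stages. At stage 2 it ran Vha16-1, Vha13, Vha55, Vha68-2 and Vha26, from 489 down to 160 FPKM, and at stage 5 Vha16-1, Vha14-1, Vha26, Vha13 and VhaSFD, from 452 down to 111 FPKM. Vha55 went from place 3 to 13 of 15, Vha68-2 from 4 to 14 and Vha100-2 from 8 to 15, while VhaSFD went from 14 to 5. Neighbours in this order overlapped between species. The spread of the main or only copies between species was wider at stage 5 for 13 of 15 genes (86.7%), against 80.9% of all genes tested.

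The copies of a subunit were compared within each species, main minus alternative copy on log2(FPKM+1), with exact two-sided sign-flip permutation tests over species. There were 18 pairs of a main and an alternative copy, and p-values were adjusted over the pairs and stages. How the deposited processing divided reads between similar copies is not given in the sources used here, so the values of copies are uncertain to that extent. At stage 2 the main copy was higher in 18 of 18 pairs. At stage 5 it was higher in 14 pairs, the alternative copy was higher in 1, and 3 were not called. The stage change of the main copy was higher than that of the alternative copy in 1 pair and lower in 12, and 5 were not called. These pairs are not separate results, because several share a main copy. A copy near 0 FPKM at both stages cannot fall, so its pair mostly repeats the change of the main copy. The change of Vha100-2 minus that of Vha100-3 was -3.74, against -3.72 for Vha100-2 alone. Of the 18 alternative copies, 13 had a median below 1 FPKM at both stages.

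The pair that turned over was that of subunit a. Vha100-1, an alternative a subunit with a known role in neurons of the fly, was at 26.6 FPKM (D. ananassae), 39.3 and 68.3 FPKM (D. santomea) at stage 2 over 13 species, below Vha100-2 in 11 of 11 species that list both (Vha100-2 minus Vha100-1, 1.16 ± 0.34, SD; exact adjusted p = 0.00270). At stage 5 it was at 48.8 (D. ananassae), 106 and 245 FPKM (D. virilis) over 12 species, and above Vha100-2 in 10 of 10 species (-3.68 ± 1.56, SD, n = 10; exact adjusted p = 0.00352). Of the summed FPKM of the a subunit copies, Vha100-1 made up 22.8%, 32.5% and 38.1% at stage 2 and 59.7%, 93.9% and 99.4% at stage 5 (lowest, median and highest species). D. virilis, where Vha100-2 did not fall, gave the 59.7%. Vha100-1 itself was higher at stage 5 in 12 of 12 species (1.43 ± 0.77, SD, n = 12; limma adjusted p = 3.36e-05), yet by 0.08 with the same total and 0.84 after quantile normalization, where it was not called. The difference between the changes of both copies, -4.85 ± 1.67 (SD, n = 10; exact adjusted p = 0.00586), had 1 sign in 10 of 10 species.

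**Figure D3:**
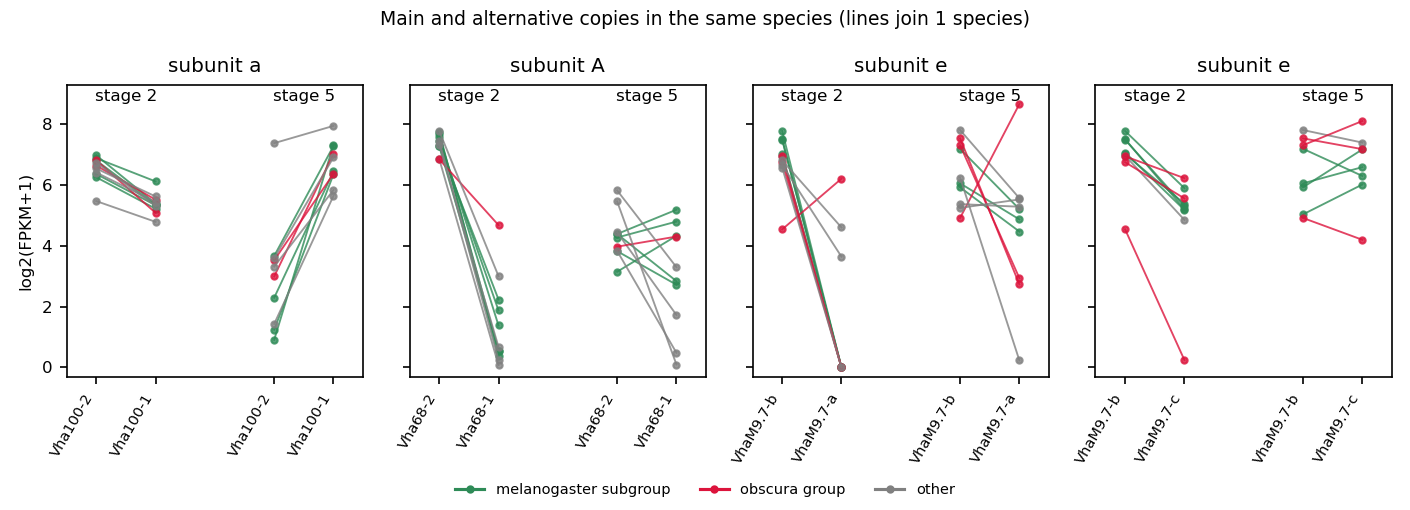
Level in log2(FPKM+1) of the main and an alternative copy at stage 2 (left of each panel) and stage 5 (right), each line joining both copies of 1 species, coloured by clade. Lines of subunit a slope down at stage 2 and up at stage 5 in each species shown, while those of subunits A and e slope down at stage 2, apart from VhaM9.7-a in D. miranda, and both ways at stage 5.

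For subunit A the main copy lost its lead at stage 5 in part of the species. Vha68-1, an alternative A copy, stood below Vha68-2 in 11 of 11 species at stage 2 (main minus alternative 5.96 ± 1.53, SD; exact adjusted p = 0.00270) and in 6 of 10 at stage 5 (1.38 ± 2.13, SD, n = 10; exact adjusted p = 0.0765). Its median share of the A copies was 0.375% at stage 2 and 26.5% at stage 5, with a range of 0.159% to 70.8% over species at stage 5. The changes of both copies differed in 10 of 10 species (-4.51 ± 2.15, SD, n = 10; exact adjusted p = 0.00586). Vha68-1 alone, from a median of 2.13 to 8.82 FPKM, was not called over 13 species (0.84 ± 2.01; limma adjusted p = 0.152). It was called higher without D. miranda (1.15) and, an alternative chosen after the data were seen, in the species with a Vha68-2 entry (1.47).

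The e subunit has 4 copies in the table, and 2 alternative ones rose. VhaM9.7-a was listed at 0 at stage 2 in 8 of 13 species and at 0.0157 FPKM in D. yakuba, but at 11.5 FPKM in D. willistoni, 19.0 in D. santomea, 23.3 in D. virilis and 72.7 in D. miranda. D. santomea and D. yakuba have no entry for the main copy VhaM9.7-b. Whether the D. santomea values of VhaM9.7-a hold reads of that copy was not tested. At stage 5 VhaM9.7-a was at 0.172 (D. mojavensis), 35.2 and 403 FPKM (D. miranda). It was higher in 12 of 12 species (3.19 ± 1.82, SD, n = 12, limma adjusted p = 2.86e-05). VhaM9.7-c went from 0.183 (D. miranda), 40.6 and 73.6 FPKM (D. pseudoobscura) to 17.3 (D. miranda), 96.1 and 273 FPKM (D. pseudoobscura), and rose in 9 of 10 species (1.50 ± 1.17, SD, n = 10; limma adjusted p = 0.00142), D. santomea being the exception. With the same total VhaM9.7-c was at 0.26 and after quantile normalization at 0.90, not called. VhaM9.7-b lay above both at stage 2, by 5.50 ± 3.01 over VhaM9.7-a (higher in 10 of 11 species; exact adjusted p = 0.00352) and by 2.02 ± 0.99 over VhaM9.7-c (9 of 9 species; exact adjusted p = 0.00586). At stage 5 neither difference was called, with 1.81 ± 2.83 (8 of 10 species; exact adjusted p = 0.0844) and -0.15 ± 0.83 (4 of 8 species; exact adjusted p = 0.602). The median share of VhaM9.7-b among the e copies was 80.3% at stage 2 and 45.0% at stage 5. D. miranda stood apart, with VhaM9.7-b at 22.2 FPKM and VhaM9.7-c near 0 at stage 2.

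Most other alternative copies were hardly present. For 13 of the 18 the median was below 1 FPKM at both stages, and 6 of them, Vha36-2, Vha14-2, Vha100-3, Vha16-2, Vha16-3 and VhaM9.7-d, reached 1 FPKM in no species and stage, with a highest of 138 values of 0.340. VhaPPA1-2, an alternative c'' copy, was below 1 FPKM at stage 2 in 8 of 8 species and at 4.03 to 6.96 FPKM at stage 5 in D. simulans, D. yakuba, D. santomea and D. erecta, but near 0 in D. sechellia, D. mauritiana and D. ananassae. Vha16-5, an alternative c copy, reached 3.11 FPKM at stage 5 in D. sechellia, and Vha16-4 1.21 and 1.35 FPKM in D. mauritiana and D. santomea. VhaAC39-2 was at 1.18 FPKM at stage 5 in D. virilis and below that elsewhere. A further 4 copies stood out where the table has no entry for the main copy in that species. Vha68-3 was at 35.0 and 4.54 FPKM (stage 2 and stage 5) in D. persimilis, Vha36-3 at 25.6 and 3.70 FPKM in D. sechellia, and in D. erecta Vha100-4 was at 21.9 and 0.559 FPKM and Vha100-5 at 4.07 and 0.0567 FPKM. In the other species these 4 copies reached at most 0.436 FPKM, and whether these 4 entries hold reads of the missing main copy was not tested.

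Whether the clades differed was tested with limma on the stage changes, obscura group minus melanogaster subgroup. Of 21 pump genes tested, 6 were called (28.6%), 4 of them with a higher change in the obscura group and 2 with a lower one, against 15.1% of 6944 genes (9.10% higher and 5.98% lower), and the median difference over all genes was 0.16. The obscura group has 3 species, 2 of which are those labelled total RNA, and D. persimilis held D. melanogaster RNA.

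Vha26 differed most firmly. At stage 2 it was at 117 to 235 FPKM in the melanogaster subgroup and at 110, 155 and 166 FPKM in D. miranda, D. persimilis and D. pseudoobscura. At stage 5 it was at 115 to 300 FPKM in the subgroup and at 15.5, 24.4 and 24.8 FPKM in D. persimilis, D. pseudoobscura and D. miranda, so the clades overlapped at stage 2 and were apart at stage 5. The changes were 0.06 ± 0.62 (n = 6) and -2.69 ± 0.57 (n = 3), a difference of -2.75 ± 0.36 (SE, limma adjusted p = 4.01e-04). D. persimilis had the lowest change at -3.24. Whether the RNA type or the earlier study bears on this difference was not tested. In the 4 remaining species Vha26 was higher at stage 5, by 0.79 to 1.19.

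Vha55 was lower at stage 5 in 6 of 6 species of the melanogaster subgroup and in 3 of 3 of the obscura group, but less so in the obscura group (-1.20 ± 0.43, n = 3) than in the subgroup (-4.09 ± 0.69, n = 6), a difference of 2.90 ± 0.62 (SE; limma adjusted p = 0.00745). The calls of Vha26 and Vha55 were kept when any 1 obscura species was left out. In the species without D. melanogaster material Vha55 (2.80), Vha16-1 (1.14) and Vha68-1 (-4.14) were not called. Vha13 was lower at stage 5 in the melanogaster subgroup (-1.86 ± 0.70, mean ± SD, n = 6) and was higher in the obscura species (0.84 ± 0.27, n = 3), with a difference of 2.71 ± 0.85 (SE; limma adjusted p = 0.0461). Vha16-1 was at -0.39 ± 0.41 and 0.80 ± 0.05 (difference 1.20 ± 0.29, SE; limma adjusted p = 0.0152), with 822 to 1073 FPKM at stage 5 in the obscura group and 234 to 641 FPKM in the subgroup. VhaM9.7-b was at -1.41 ± 0.77 (n = 4) and 0.51 ± 0.24 (n = 3; difference 1.92 ± 0.56, SE; limma adjusted p = 0.0384). Vha13 and VhaM9.7-b lost their calls when any 1 obscura species was left out, and Vha16-1 without D. pseudoobscura (1.17) or D. persimilis (1.21) and after quantile normalization (0.90). In the 4 remaining species the changes ran from -4.63 to -1.04 for Vha55 and from -4.75 to 0.23 for Vha13. For Vha16-1 they ran from -1.18 to 0.05 and for VhaM9.7-b from -1.44 to 0.84. The highest Vha55 and VhaM9.7-b values there were those of D. ananassae.

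Vha68-1 went the other way. It was at 24.6, 64.8 and 118 FPKM at stage 2 in D. pseudoobscura, D. persimilis and D. miranda and at 0.286 to 6.64 FPKM in the melanogaster subgroup, and its stage 2 level, after centring each column on its median, was higher in the obscura group by 4.61 ± 0.75 (SE; limma adjusted p = 0.00165). Its stage change was 2.25 ± 1.74 (n = 6) in the subgroup and -1.38 ± 1.29 (n = 3) in the obscura group, a difference of -3.63 ± 0.92 (SE; limma adjusted p = 0.0180), which was not called without D. miranda (-2.91). In the 4 remaining species the change of Vha68-1 ran from -0.20 to 1.65. D. persimilis and D. miranda have no Vha68-2 entry, while D. pseudoobscura has one (113 and 14.7 FPKM). Of 21 pump genes, Vha68-1 and Vha14-1 were called at stage 2 (9.52%, against 11.2% of 6379 genes, 5.75% higher and 5.47% lower in the obscura group). Vha14-1 was lower in the obscura group, at 36.6 and 62.7 FPKM in 2 species against 118 to 204 FPKM in the subgroup (-1.58 ± 0.34, SE; limma adjusted p = 0.00998).

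**Figure D4:**
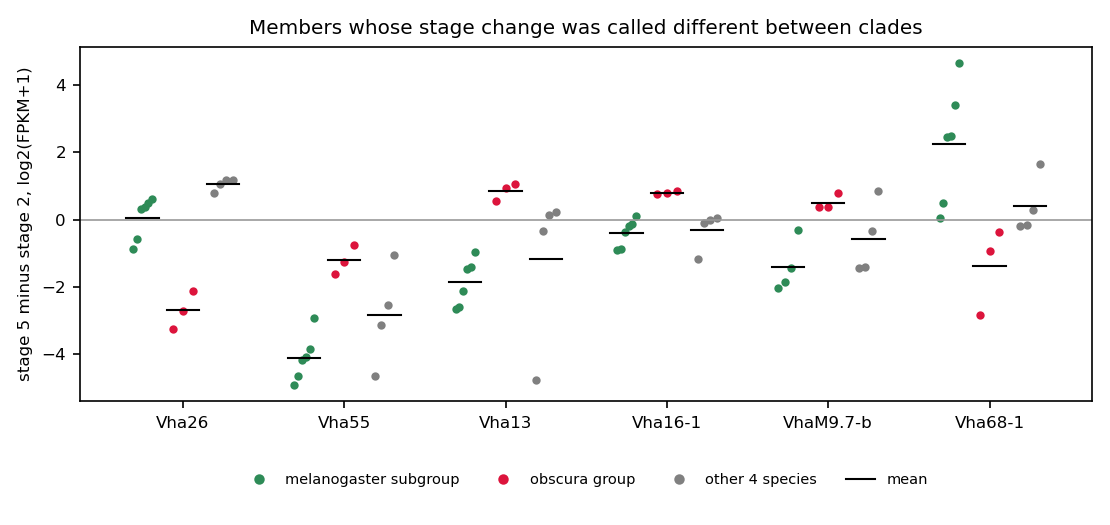
Stage change in log2(FPKM+1), stage 5 minus stage 2, of the 6 pump genes called different between the melanogaster subgroup (green) and the obscura group (red), with the 4 other species in grey, 1 point per species and bars at the means. The obscura points lie below the others for Vha26 and above the melanogaster subgroup for Vha55, Vha13, Vha16-1 and VhaM9.7-b.

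Counts for related gene lists stand beside the shares of all genes tested, 30.9% called higher and 16.5% lower, and the median of 0.39. The list counts at an unadjusted p under 0.05 have no share of all genes beside them. Of 4 tested genes that assemble or regulate the pump, 3 were called lower and 0 higher (limma; 3 and 0 at an unadjusted p under 0.05), with a median change of -2.08. Rbcn-3A, the rabconnectin part of the factor that rejoins V1 and V0, went from a median of 19.7 to 3.34 FPKM and fell in 13 of 13 species (-2.33 ± 1.08; limma adjusted p = 4.01e-06). Mitf, the transcription factor that drives lysosome and V-ATPase genes, went from 53.9 to 5.09 FPKM (-2.25 ± 2.08, lower in 11 of 13 species; limma adjusted p = 0.00126), and mtd, a TLDc domain gene related to V-ATPase regulators, from 76.3 to 15.3 FPKM (-1.90 ± 1.48, lower in 11 of 12). Rbcn-3B, the partner of Rbcn-3A, was at -0.24 ± 0.78 and not called. After centring 3 of the 4 were lower, and with the same total 4. Of all genes, 1651 of 7225 were lower after centring and 3025 of 7133 with the same total.

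The mitochondrial ATP synthase, the related rotary enzyme that makes ATP, went up on the deposited scale, with 10 of 13 tested genes called higher (76.9%, against 30.9% of all genes) and 0 lower (limma; 12 and 0 at an unadjusted p under 0.05), a median of 1.56, and ATPsynG (1.90 ± 0.38), ATPsynD (1.75 ± 0.51) and ATPsynO (1.71 ± 0.49) in the lead. With each species centred on its median 8 were higher, but with the same total or after quantile normalization 0 were higher and 1 was lower. Of all genes, 1599 of 7225 were higher after centring, 586 of 7133 with the same total and 1306 of 7284 after quantile normalization.

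Of 9 tested genes for lysosomal enzymes and membrane proteins, 4 were called higher (44.4%, against 30.9% of all genes) and 3 lower (33.3%, against 16.5%). Their median was 0.86. The proteases cathD (2.60 ± 1.00) and CtsB1 (1.93 ± 0.59) rose, and the lysosomal efflux transporter spin fell (-2.29 ± 1.61). At equal totals 1 was higher and 4 lower, where 586 of all 7133 genes were higher and 3025 lower. Of 21 endosome and lysosome traffic genes 7 were higher (33.3%, near the 30.9% of all genes) and 0 lower, with a median of 0.62. At an unadjusted p under 0.05 in limma 11 were higher and 1 lower. The recycling GTPase Rab11 (1.61 ± 0.50), the ESCRT gene TSG101 (1.58 ± 0.65) and the clathrin heavy chain Chc (1.30 ± 0.55) led. With the same total 8 of the 21 were lower and 0 higher, beside 3025 of all 7133 genes lower. None of 5 genes of the TORC1 dock on lysosomes was called (limma; 1 lower and 0 higher at an unadjusted p under 0.05), with Rheb at -0.62 ± 1.09, RagC-D at -0.47 ± 1.18 and Tor at 0.44 ± 1.04; with the same total 4 were called lower. Of 7 chloride and cation transport genes, 2 were higher (28.6%, near the 30.9% of all genes) and 2 lower (28.6%, against 16.5%), with a median of -0.32. Nhe2 rose by 2.41 ± 2.65, Nhe3 fell by 1.54 ± 0.72 and Nhe1 fell by 1.32 ± 0.37. At equal totals 4 of these 7 transport genes were lower and 0 higher, on the scale where 3025 of 7133 genes were lower.

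**Figure D5:**
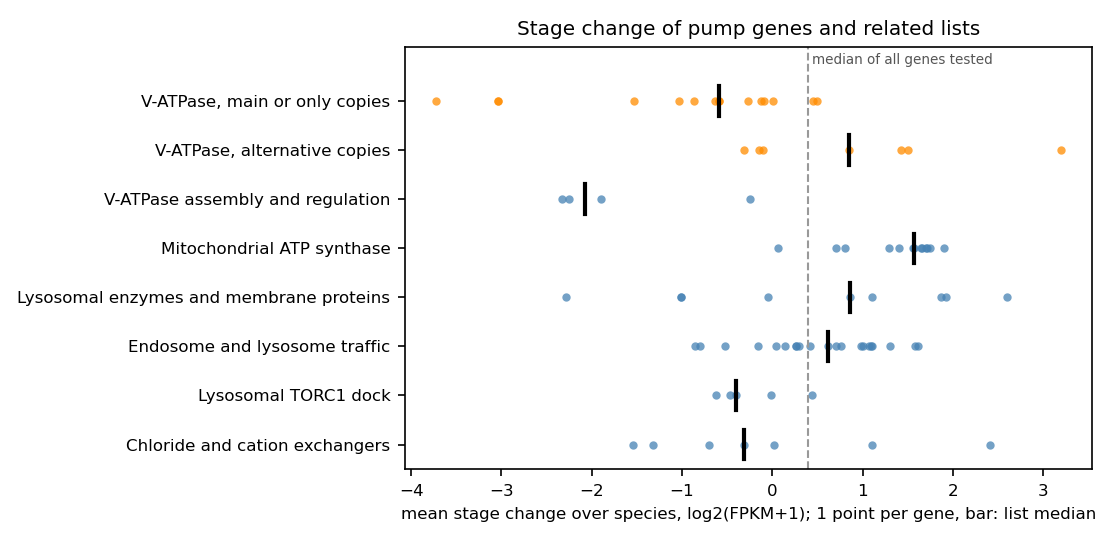
Mean stage change in log2(FPKM+1) over species of each tested gene, for the pump's main or only and alternative copies (orange) and 6 related lists (blue), with black bars at list medians and a dashed line at the median of all genes tested, 0.39. Main or only pump copies reach from -3.72 to 0.50 and mitochondrial ATP synthase genes lie above 0; scaling to the same total moves the lists to lower values, and the synthase genes then have no higher call.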

How the data were processed

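Values were FPKM as deposited, 1 per gene, species and stage. Per the submitters' processing notes, cutadapt, TopHat2, Cufflinks, Cuffnorm and Cuffdiff were used. The sources used here give neither their versions, the builds nor the rule by which reads of similar copies were divided. Values of D. santomea carry D. yakuba gene names. In the wider table values sit 1 column left of their header names, which was checked on 3764 genes held by both tables with identical values. A column without listed embryos, D. melanogaster stage 5, was not used (2 columns in all). The pump genes, copies and lists were chosen with earlier results of these data known.

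From the FPKM, log2(FPKM+1) differences were fitted over all genes with values in at least 10 species and a mean FPKM of at least 1, with limma 3.58.1 in R 4.3.3 (trended eBayes), without pairing single embryos. Copies were compared with exact sign-flip tests in Python 3.11.15. Both were tested on simulated data. FPKM gives no depth, so no counting intervals are given, and an exact 0 is only said to be listed at 0. Named were all pump genes, up to 3 genes per list with the largest change, and per marker list the 2 of highest median FPKM, besides slam. Alternatives covered pseudocounts, filters, zeros, scaling, clades, mixed libraries and single species.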

Additional observations from a re-analysis of the deposited data

Results flagged for a closer look

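In the melanogaster subgroup 64 sets of 4 to 7 species were checked for a species far from its neighbours, and 16 had one. Chance flags about 1 in 20 such sets, and the sets share species.

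D. santomea held 5 of these values. In log2(FPKM+1) at stage 2, Vha55 was at 8.92 there, with the nearest species at 7.69, Vha100-1 at 6.11 (nearest 5.38) and VhaM9.7-a at 4.32 (nearest 0.02). The stage changes of D. santomea were 2.19 for VhaM9.7-a (nearest 4.47) and -0.51 for VhaM9.7-c (nearest 0.84). The main e copy, VhaM9.7-b, has no entry in D. santomea. D. yakuba held 3 values, with VhaAC39-1 at 7.97 at stage 2 (nearest 6.79), VhaSFD at 5.74 at stage 5 (nearest 6.81) and a stage change of Vha14-1 of -0.55 (nearest 0.35). In D. mauritiana VhaPPA1-1 was at 6.20e-05 at stage 2 (nearest 6.56) and at 0.00 at stage 5 (nearest 4.85).

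D. erecta held 3 values: a stage change of Vha68-2 of -4.31 (nearest -3.46), Vha100-4 at 4.52 at stage 2 (nearest 0.05) and its stage change of -3.88 (nearest -0.05). In D. sechellia Vha36-3 was at 4.73 at stage 2 (nearest 0.17), and Vha68-3 was at 0.43 at stage 5 (nearest 0.10) with a stage change of 0.43 (nearest 0.08). The main copies Vha100-2 in D. erecta and Vha36-1 in D. sechellia have no entry.

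Between the clades 6 stage changes differed in the limma test of the difference, obscura group minus melanogaster subgroup. The difference was 2.71 for Vha13, 1.20 for Vha16-1, 2.90 for Vha55 and 1.92 for VhaM9.7-b, and it was -2.75 for Vha26 and -3.63 for Vha68-1.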

How the results depend on the processing

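No paired analysis was possible because the columns combine the embryos of a group and carry no replicate numbers. The main count of 5 lower and 3 higher pump genes became 13 and 1 with equal column totals, and 12 and 1 after quantile normalization. The totals were taken over genes with a value in every column and none of 100000 FPKM or more. Of all genes, 3025 of 7133 were lower with equal totals and 1552 of 7284 after quantile normalization. In the 7 species without D. melanogaster material 3 were lower. Of the copy pairs, 1 mean per clade left enough clades for 10 pairs, with the main copy higher in 10 at stage 2 and 7 at stage 5, and in 0 for the stage change. With values of 0 as missing these counts were 5, 8 and 0, with the alternative copy's change higher in 4. In species without D. melanogaster material the main copy was higher in 3 and the alternative in 0 at stage 5, and for the change 0 and 4. Fewer pairs reached the needed 6 species there. For the clades, the higher changes in the obscura group numbered 2 without a filter on low values, 2 after quantile normalization and 1 without mixed libraries, where 1 was lower and the stage 2 level was lower in 0.

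Leaving out 1 species at a time gave 0 to 1 pairs in which the main copy's change was higher, and without 1 obscura species 1 to 2 higher changes, 1 to 2 lower changes and 0 to 1 lower stage 2 levels. The means that turned sign belonged to genes that were not called. With a pseudocount of 0.1 they were Vha68-3 (0.17) and Vha36-3 (0.58). With centring it was VhaAC45 (-0.37). With the same total they were Vha68-1 (-0.10), Vha14-1 (-0.82), VhaSFD (-0.87) and VhaAC45 (-1.32), and after quantile normalization Vha14-1 (-0.60), VhaSFD (-0.32) and VhaAC45 (-0.84). With 1 mean per clade they were Vha26 (0.11) and VhaM8.9 (0.021), without mixed libraries Vha16-1 (0.082) and VhaAC45 (-0.0065), and without D. pseudoobscura and D. miranda Vha26 (0.12). In species with a main copy entry, chosen after the data were seen, they were Vha68-3 (0.062), Vha36-3 (0.13) and Vha100-4 (0.081). Single omissions moved VhaAC45 from -0.062 to 0.060, Vha36-3 from -0.16 to 0.16, Vha100-4 from -0.41 to 0.081, Vha68-3 from -0.19 to 0.068 and VhaM9.7-b minus VhaM9.7-c at stage 5 from -0.30 to 0.0095. The cause of these shifts was not tested. Depth is unknown and species share ancestry, which limits each p-value to the spread between these species.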
